A study of Homo sapiens with 24 samples.

Results

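Chromatin accessibility was measured in the flanks of nuclear transfer RNA (tRNA) genes of HEK293, a long-established cell line from human embryonic kidney, by ATAC-seq, in which a transposase inserts sequencing adapters into open DNA. The flanks were 2976 windows of the 1055332 flank windows in the deposited table, and they belonged to 496 of 175946 annotated features. A feature was taken when its class was tRNA, it lay outside the mitochondrial chromosome and the first of its names was that of a tRNA with an assigned amino acid. Each gene had an upstream and a downstream window of 500 bp, 5 kb and 50 kb. All windows began 475 bp outside the feature's interval, which extends 25 bp beyond the gene, so the 500 bp window covered the stretch from 500 to 1000 bp from the gene and lay inside the wider windows. The gene itself and its closest surroundings were therefore outside every flank. A window over the feature, 125 bp wider than its interval on each side, served as a reference. The 496 genes carried 289 distinct names, since several genes can share one, and 429 of the genes overlapped a tRNA gene of RefSeq (GRCh38.p14).

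The cells had a wild-type genotype apart from the introduced construct and overexpressed one of 4 proteins. These were eGFP, a fluorescent protein that served as control (written GFP from here on), the lamins B1 (LMNB1) and B2 (LMNB2), or lamin A (LMNA). Each group held 3 ATAC-seq libraries and 3 small RNA libraries, 24 libraries in all. The libraries of an assay carried one batch number. The labels do not say whether replicates were separate cultures or transfections, so the tests measure the spread between these libraries, which may be technical. They give no time after transfection.

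Lamins form the filament layer under the inner nuclear membrane, to which large, mostly silent stretches of chromatin attach. tRNA genes are short and are transcribed by RNA polymerase III (Pol III). Their promoter lies inside the gene, as an A box and a B box that bind the factor TFIIIC, which then places TFIIIB just upstream of the start. Many human tRNA genes lie in large groups, above all next to the histone genes on chromosome 6 and on chromosome 1, and only part of them is active in a given cell type.

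Sequences were available for 14 of the 496 genes, those that lie whole inside a RefSeq window around the start of another gene (250 bases before to 50 after it). They are shown because copies with the same internal promoter can be set beside their flanks. Capitals mark a match to the B box letters GGTTCNANNCC, searched on the gene's own strand. These letters occurred in 12 of the 14 genes. Searched on either strand, they occurred in 296 of all 35116 RefSeq start windows of 300 bases (0.84%). A match is a description of the letters. The genes below are given 5′ to 3′ on their own strand, in GRCh38.p14 coordinates.
TRH-GTG1-9, histidine (chr15:45201151-45201222, plus strand): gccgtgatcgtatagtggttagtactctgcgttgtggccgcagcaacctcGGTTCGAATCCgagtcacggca
TRH-GTG1-3, histidine (chr1:148281365-148281436, plus strand): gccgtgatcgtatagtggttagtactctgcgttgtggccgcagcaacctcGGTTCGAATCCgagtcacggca
TRP-TGG3-2, proline (chr14:20684016-20684087, plus strand): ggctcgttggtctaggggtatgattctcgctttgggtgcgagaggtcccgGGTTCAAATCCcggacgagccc
TRF-GAA1-5, phenylalanine (chr13:94549650-94549722, minus strand): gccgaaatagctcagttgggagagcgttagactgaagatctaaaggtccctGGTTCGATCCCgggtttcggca
TRR-ACG2-1, arginine (chr3:45688999-45689071, minus strand): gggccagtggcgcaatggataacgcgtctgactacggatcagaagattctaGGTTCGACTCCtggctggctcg
TRG-CCC2-2, glycine (chr16:636736-636806, minus strand): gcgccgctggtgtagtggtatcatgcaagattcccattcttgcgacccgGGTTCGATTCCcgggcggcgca
TRN-GTT6-1, asparagine (chr1:143735920-143735993, minus strand): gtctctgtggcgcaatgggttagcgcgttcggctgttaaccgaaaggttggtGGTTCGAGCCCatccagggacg
TRN-GTT4-1, asparagine (chr1:16889677-16889750, plus strand): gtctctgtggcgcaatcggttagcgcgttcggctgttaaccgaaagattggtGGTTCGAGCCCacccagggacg

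The 2 histidine genes have the same sequence, and the asparagine genes differ at 3 of 74 positions. Counts below are ATAC counts per kb of window, divided by the relative depth of each library (depth-scaled counts per kb), so that widths and genes can be compared. In GFP the 500 bp flanks of TRH-GTG1-9 held 1251 ± 150 (SD, n = 3) and those of the identical TRH-GTG1-3 held 271 ± 33.5. TRP-TGG3-2 held 823 ± 40.1, TRF-GAA1-5 held 391 ± 40.3, TRR-ACG2-1 held 416 ± 19.98 and TRG-CCC2-2 held 426 ± 18.9. The asparagine genes were lower, at 91.9 ± 3.26 for TRN-GTT6-1 and 59.1 ± 4.52 for TRN-GTT4-1. Flanks of the identical histidine genes thus stood several replicate SDs apart. The upstream flank of TRH-GTG1-9 holds another whole tRNA gene, TRH-GTG1-8 (feature interval chr15:45200388-45200509). Its value of 1251 therefore includes counts over a tRNA gene. Likewise, the upstream flank of TRP-TGG3-2 holds the whole tRNA gene TRY-GTA5-5 (feature interval chr14:20683248-20683386). The value of 823 for TRP-TGG3-2 thus also includes counts over a tRNA gene.

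Some flanks hold the promoter of a protein-coding gene. Of 12 such promoters that lie whole within a 500 bp flank, 8 overlap no coding gene's body in RefSeq in the 250 bases before the start. The 4 of these with the densest flanks in GFP are printed below 5′ to 3′ on the coding gene's strand, since they show what the densest flanks of this kind contain. Capitals mark CCAAT and GGGCGG (the GC box), on either strand. In the same 250 bases of all 35116 RefSeq starts, CCAAT occurred in 32.0%, GGGCGG in 42.6% and TATAAA in 10.7%.
PSMB3 (chr17:38752491-38752740, plus strand): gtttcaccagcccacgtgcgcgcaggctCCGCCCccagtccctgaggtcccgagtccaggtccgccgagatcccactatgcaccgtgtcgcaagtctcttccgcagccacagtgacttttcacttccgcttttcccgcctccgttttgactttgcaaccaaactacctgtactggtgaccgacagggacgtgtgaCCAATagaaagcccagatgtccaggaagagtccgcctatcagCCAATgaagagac
DPP9 (chr19:4723843-4724092, minus strand): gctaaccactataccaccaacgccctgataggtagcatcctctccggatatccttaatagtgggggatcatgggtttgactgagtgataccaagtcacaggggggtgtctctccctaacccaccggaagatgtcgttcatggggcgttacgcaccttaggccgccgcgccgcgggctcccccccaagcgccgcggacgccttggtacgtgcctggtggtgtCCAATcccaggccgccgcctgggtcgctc
ALOXE3 (chr17:8118917-8119166, minus strand): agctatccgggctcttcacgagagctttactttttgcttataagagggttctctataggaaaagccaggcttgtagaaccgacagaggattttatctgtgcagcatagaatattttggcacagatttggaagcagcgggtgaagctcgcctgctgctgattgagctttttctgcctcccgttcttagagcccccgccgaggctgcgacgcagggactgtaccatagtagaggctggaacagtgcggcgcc
HMGN4 (chr6:26538116-26538365, plus strand): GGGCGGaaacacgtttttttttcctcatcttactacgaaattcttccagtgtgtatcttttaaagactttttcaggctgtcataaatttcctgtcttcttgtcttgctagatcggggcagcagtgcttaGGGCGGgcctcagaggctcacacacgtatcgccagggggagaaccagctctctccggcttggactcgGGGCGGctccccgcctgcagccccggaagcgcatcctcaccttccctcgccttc

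PSMB3, a proteasome subunit gene, had 2 CCAAT matches and 1 GC box and lies in the upstream flank of TRN-GTT2-5. DPP9, a dipeptidyl peptidase gene, had 1 CCAAT match and lies in the downstream flank of TRV-CAC3-1. The first 23 bases of its window belong to another tRNA gene, TRG-TCC1-1. The ALOXE3 window, in the upstream flank of TRQ-CTG1-5, held none of these letters, and its first 12 bases belong to the lysine gene TRK-TTT3-5. ALOXE3 encodes a lipoxygenase. HMGN4, which encodes a nucleosome-binding protein, had 3 GC boxes and lies in the downstream flank of TRR-ACG1-2. The first 11 bases of its window belong to the valine tRNA gene TRV-CAC1-6, and 1 of the 3 GC boxes lies within them. TATAAA was found in none of these 4 windows.

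Total counts over all 500 bp windows, in units of 1e6, were 51.9 to 90.3 per library. The mitochondrial windows took 72.1 to 78.2% of them in GFP and 72.7 to 75.5% in LMNA libraries, but 62.3 to 65.6% for LMNB1 and 52.5 to 60.4% for LMNB2, so the share differed between groups. Scaling used the trimmed mean of M values (TMM) over all tested windows of a width, mitochondrial ones included. At 50 kb the mitochondrial windows held 0.0% of the counts in every library, so total counts at that width were nuclear. Relative depths at 500 bp ranged from 0.70 to 1.27. A 500 bp tRNA flank held a median of 35 to 65 counts per library, a 5 kb flank 250.5 to 452 and a 50 kb flank 3160 to 5765. Windows over the overexpressed genes checked the labels: per nuclear library total, the LMNA windows held 6369 to 8897 CPM in the 3 LMNA libraries against 43.2 to 52.2 in GFP. LMNB1 and LMNB2 windows held 64884 to 85027 and 193371 to 232067 in their own libraries, against 160 to 204 and 348 to 482 in GFP.

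The first question was how accessibility falls with distance from a tRNA gene. In GFP the median over the 496 genes was 1170 ± 85.8 (SD, n = 3 libraries) in the feature window and 237 ± 14.9 in the 500 bp flanks. It was 68.6 ± 2.58 in the part of the 5 kb flanks beyond the 500 bp windows and 83.0 ± 4.81 in the part of the 50 kb flanks beyond 5 kb. The step from the gene to the 500 bp flanks was thus 4.94-fold, and the step to the outer 5 kb flanks was 3.45-fold. From there to the outer 50 kb flanks the median did not fall further. For all 175690 nuclear features of the table the same medians were 22.1, 23.7, 19.7 and 25.6, with a 1.20-fold step from the 500 bp flanks to the outer 5 kb flanks. tRNA genes therefore stood 53.0-fold above the median feature at the gene, 10.0-fold in the 500 bp flanks, 3.49-fold in the outer 5 kb flanks and 3.24-fold in the outer 50 kb flanks. The lamin groups gave the same shape: medians of the 500 bp flanks were 239 ± 16.5 with LMNA, 232 ± 6.05 with LMNB1 and 227 ± 8.28 with LMNB2.

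**Figure D1:**
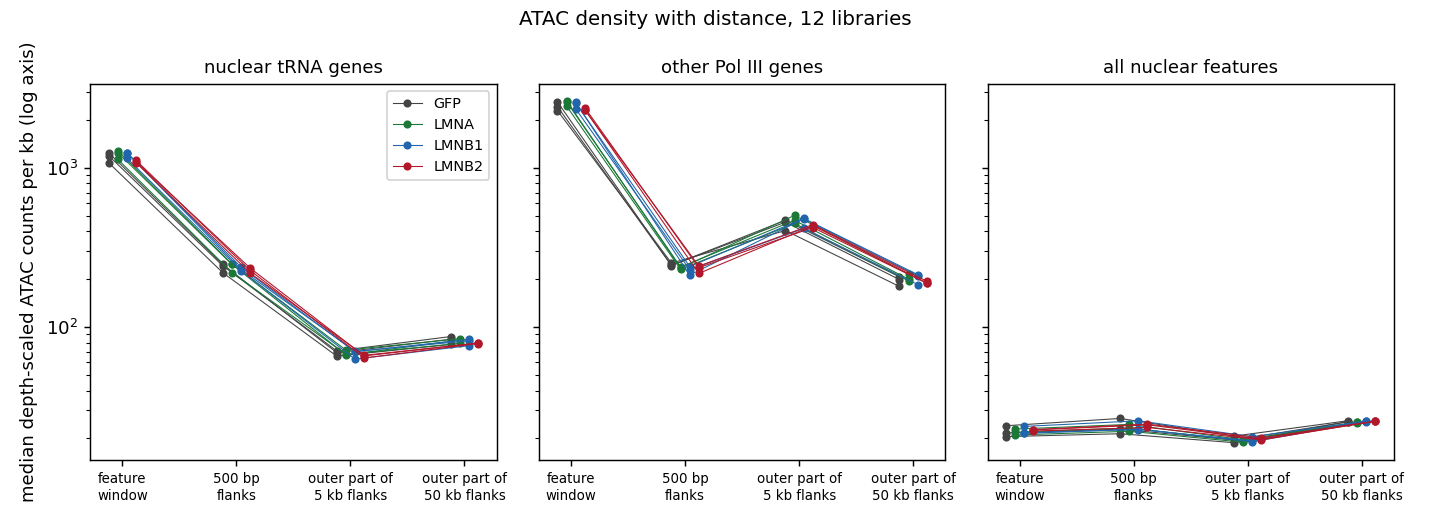
Median depth-scaled ATAC counts per kb (log axis) in 4 zones of increasing distance, for 496 tRNA genes, 79 other Pol III genes and all nuclear features; each line is 1 of 12 libraries, coloured by group. The tRNA lines fall from 1076 to 1243 at the gene in GFP to 219.8 to 247.7 in the 500 bp flanks and again to the outer 5 kb flanks, and then level out. At the gene the LMNB2 libraries (1079 to 1114) lie within the GFP range and below the LMNA (1130 to 1282) and LMNB1 (1148 to 1245) libraries.

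Other Pol III genes (5S rRNA, 7SL, 7SK, Y, vault, U6, SNAR and related genes, 79 in the table) served as a comparison. Their 500 bp flanks held 247 ± 4.99 in GFP, within the SD of the tRNA median of 237 ± 14.9. Farther out they were denser: 443 ± 34.4 in the outer 5 kb flanks and 195 ± 13.8 in the outer 50 kb flanks, against 68.6 and 83.0 for tRNA genes. Many of these genes are tandem copies, whose wide flanks overlap.

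Per gene, the density of the 500 bp flanks was divided by that of the 50 kb flanks. The median of this near-to-far ratio was 1.24 ± 0.07 on the log2 scale in GFP (2.35-fold). It was above 0 in all 3 GFP libraries for 315 genes and below 0 in all 3 for 140, and in all 12 libraries for 304 and 124. The median tRNA gene thus lay in a local rise, while a sizeable minority lay in a local dip. For all 175690 nuclear features the GFP median was -0.02 ± 0.07. Of these, 62760 (35.7%) were above 0 and 63244 below 0 in all 3 GFP libraries, against 63.5% of tRNA genes above 0. Dips were therefore not particular to tRNA genes. Among genes with no other tRNA gene in their 50 kb flanks (111) the ratio was 1.43 ± 0.05, and among the 385 with one it was 1.18 ± 0.05. In the other Pol III genes it was 0.26 ± 0.09. The upstream flank was slightly denser than the downstream flank: the median log2 ratio was 0.14 ± 0.04 in GFP, with 204 genes above 0 and 189 below 0 in every GFP library. It depended on the neighbours: it was 0.62 for genes with no tRNA neighbour and 0.31 with 1 gene of each overlapping set. For all nuclear features this ratio was 0.49 ± 0.02.

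The genes differed far more among themselves than the groups did. In GFP the range from the 25th to the 75th percentile of genes was 41.3 to 607 in the 500 bp flanks (14.7-fold) and 47.5 to 163 in the 50 kb flanks (3.44-fold). Flanks under the all-feature median of 23.7 were found for 75 genes (15.1%). At the other end, 238 genes (48.0%) exceeded 260, the 90th percentile of all features. By the same marks for the 50 kb flanks, 57 genes were low and 264 (53.2%) high. Genes with a RefSeq tRNA entry had a median of 306 ± 16.9 in the 500 bp flanks, and the 67 without one had 25.1 ± 1.42, close to the median feature. For those 67 the log2 near-to-far ratio was -0.83 ± 0.16.

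**Figure D2:**
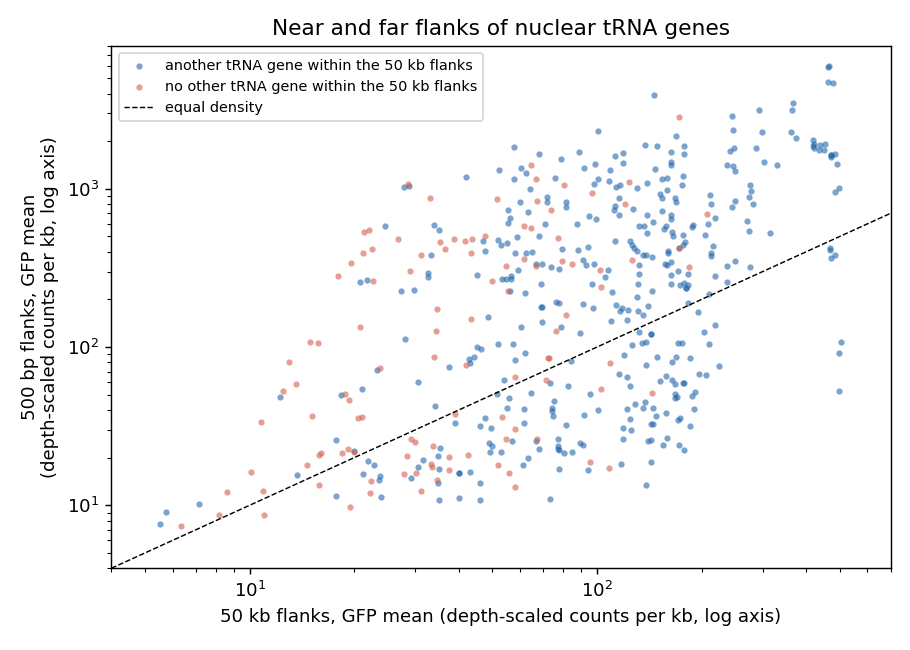
GFP mean density of the 500 bp flanks against that of the 50 kb flanks for 496 tRNA genes (log axes, depth-scaled counts per kb); the dashed line marks equal density. Most points lie above the line, a second cloud of genes lies below it, and genes without a tRNA neighbour (red) are mostly at the lower 50 kb densities.

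The densest 500 bp flanks belonged to 4 aspartate tRNA genes in tandem on chromosome 1. TRD-GTC2-5 (feature interval chr1:161470390-161470511) had 6235, 6272 and 5346 counts per kb in the 3 GFP libraries, and TRD-GTC2-3 had 6340, 6136 and 5308. TRD-GTC2-4 had 5289, 4887 and 3999, and TRD-GTC2-2 had 5012, 4782 and 4154. Their spacing was 7381 to 7418 bp. Most of the signal came from 1 side: TRD-GTC2-5 had 10093 ± 867 downstream and 1810 ± 181 upstream, and another tRNA gene lay 536 bp away. The fifth copy of the series, TRD-GTC2-1, had 948 ± 65.7 although its feature window held 2735, close to the 2955 to 3255 of the others. How the authors counted reads that map to several near-identical copies is not given in the sources used here, so the values of tandem copies may not be independent. Next came TRR-CCT2-1, an arginine tRNA gene within KCTD2 on chromosome 17 (chr17:75034406-75034528), with 4147, 3873 and 3670.

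At the low end were tRNA-Leu-AAG-8-1 on chromosome 3 (14.3, 5.39 and 2.43), tRNA-Ala-TGC-8-1 on chromosome 11 (2.86, 12.1 and 10.9) and tRNA-Tyr-GTA-9-1 on chromosome 8 (8.57, 4.04 and 13.4). The isoleucine genes TRI-GAT1-2 (4.28, 16.2 and 2.43) and TRI-GAT1-3 (5.71, 9.42 and 12.1) on chromosome X completed the lowest 5. These values rest on a few counts per window, and the GFP libraries of each gene overlap those of the others. In the 50 kb flanks, which hold more counts, TRI-GAT1-2 (5.14, 5.14 and 6.28), TRI-GAT1-3 (4.86, 5.71 and 6.68) and tRNA-Leu-AAG-8-1 (6.03, 6.38 and 6.63) were again lowest.

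The steepest local rise was at the glutamate gene TRE-TTC1-2 on chromosome 13 (chr13:41060713-41060834), whose upstream flank holds the starts of ELF1 and WBP4. Its 500 bp flanks held 1122, 1116 and 961 in GFP and its 50 kb flanks 28.9, 29.7 and 26.9, a log2 ratio of 5.25 ± 0.10. The tyrosine gene TRY-GTA5-2 and the alanine gene TRA-AGC8-2, neighbours 62 bp apart within TRIM55, had ratios of 5.23 ± 0.09 and 5.21 ± 0.08. TRL-CAG2-1 (5.02 ± 0.05) and TRL-CAA6-1 (4.85 ± 0.12), both leucine genes, followed. In the printed set, TRH-GTG1-9 (4.35), TRR-ACG2-1 (4.24) and TRF-GAA1-5 (4.23) also stood in steep rises.

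The deepest local dips were at tRNA-iMet-CAT-2-1 (log2 ratio -3.35 ± 0.70), TRG-GCC4-1 (-3.23 ± 0.52), TRF-GAA4-1 (-3.10 ± 1.03), TRT-AGT4-1 (-3.09 ± 1.74) and TRR-TCG4-1 (-2.89 ± 0.78). All lie in runs of tRNA genes on chromosomes 1 and 6. TRG-GCC4-1 (chr1:161480541-161480661) had 40.0, 47.1 and 70.4 in its 500 bp flanks within 50 kb flanks at 541, 509 and 443. Those 50 kb flanks are among the 3 densest of all tRNA genes, with those of TRN-GTT2-2 (544, 515 and 449) and TRE-TTC4-2 (540, 511 and 446), and all 3 belong to the same chromosome 1 run. A low near flank therefore occurred inside the densest neighbourhood.

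Runs were defined as tRNA genes whose 50 kb flanks hold another one, joined from gene to gene, and 13 runs had 10 or more genes, 7 of them on chromosome 6. The runs at chr17:8119130-8227089 (18 genes) and chr1:161399675-161540339 (32 genes) had median 500 bp densities of 1770 ± 144 and 1506 ± 107 in GFP. The chromosome 5 run of 13 genes had 832 ± 58.2. On chromosome 6 the medians ranged widely: 654 ± 75.9 for the run from 26521183, 555 ± 59.0 from 26286501, 234 ± 16.9 from 28474527 and 75.4 ± 4.58 from 27150218. The runs from 26673337 (21 genes) and 57792808 (10 genes) had 25.4 ± 3.31 and 25.6 ± 2.34, close to the all-feature median, and the chromosome 7 run of 14 genes had 37.0 ± 5.27. These 3 low runs also had 50 kb densities of only 69.9, 36.3 and 61.4. Runs on chromosome 6 thus ranged from the level of the median feature to well above it.

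**Figure D3:**
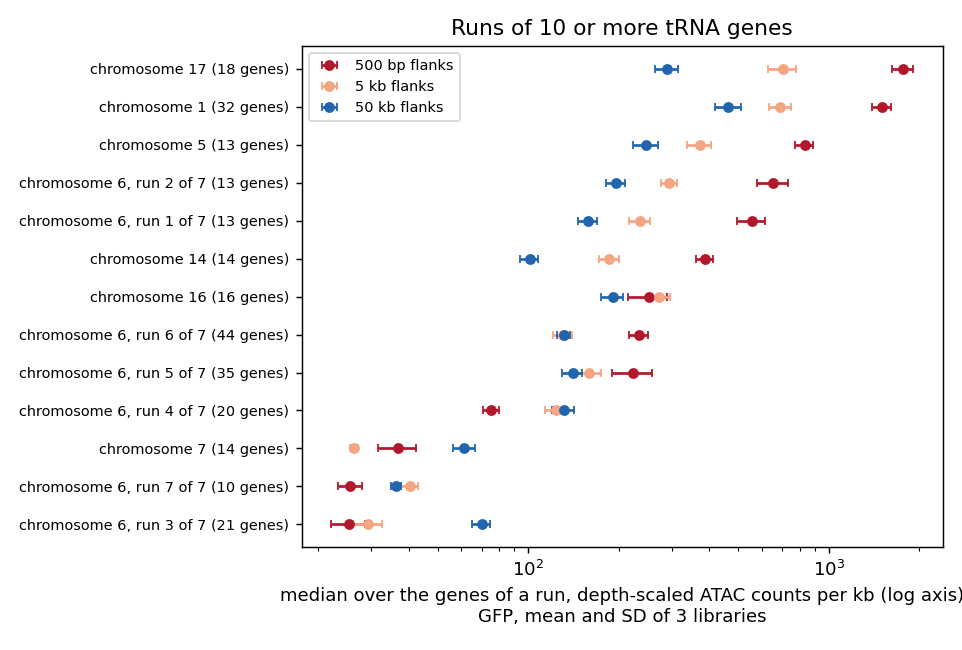
Median density in GFP of the 500 bp, 5 kb and 50 kb flanks (log axis, mean and SD of 3 libraries) for the 13 runs of 10 or more tRNA genes, ordered by the 500 bp value. In the upper 6 runs density falls with distance, whereas in the lowest 4 the 50 kb flanks are denser than the 500 bp flanks.

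Genes that share a name in the table lie at different places in the genome and are called copies here. Their RefSeq loci can carry different numbers after the anticodon. Apart from the histidine genes printed above, their sequences were not compared. For the 22 names with 5 or more copies (140 genes), the densest copy exceeded the sparsest 9.64-fold in the 500 bp flanks at the median, with a range from 1.56 to 109. The widest spread was in the cysteine genes named tRNA-Cys-GCA-1-2, from 21.4 at TRC-GCA7-1 to 2330 at TRC-GCA2-3. The 9 histidine copies named tRNA-His-GTG-1-5 ran from 16.0 at TRH-GTG1-2 to 1349 at TRH-GTG1-1, and the 8 initiator methionine copies named tRNA-iMet-CAT-1-6, which carry the amino acid that starts translation, ran from 133 to 982. The narrowest was tRNA-Leu-CAG-1-1, with 7 copies between 1055 and 1648. Across isotypes, the medians ranged from 39.1 ± 4.82 for cysteine (30 genes) and 64.3 ± 9.10 for alanine (47 genes) to 802 ± 31.3 for aspartate (19 genes), whose high value includes the tandem copies on chromosome 1.

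A protein-coding promoter overlapped a 500 bp flank of 23 tRNA genes. Their flanks had a median density of 982 ± 72.8 in GFP, against 200 ± 9.68 for the other 473 genes. On the promoter's side the median was 1584 and on the other side 323, and the promoter's side was denser in 19 of 23 genes. Some promoter-side flanks also include counts over another tRNA gene. Those of TRQ-CTG1-5, TRY-GTA5-5 and TRH-GTG1-8 hold one whole, and those of TRV-CAC3-1 and TRR-ACG1-2 overlap one. The parts of promoter and tRNA gene in these values cannot be told apart. The upstream flank of TRN-GTT2-5, which holds the PSMB3 promoter printed above, had 6372, 5334 and 4813 in the 3 GFP libraries against 172 ± 33.4 on the other side. The DPP9 side of TRV-CAC3-1 had 3160 ± 220 against 175 ± 17.2, and the HMGN4 side of TRR-ACG1-2 had 2854 ± 203 against 568 ± 28.7. At TRE-CTC1-7 the flank with the start of NCOA7, a nuclear receptor coactivator gene, had 1584 ± 34.8 against 23.2 ± 11.3, and at TRX-CAT1-2 the flank with the histone gene H4C8 had 1906 ± 141 against 59.1 ± 28.7. The 4 exceptions were BCAR3 (TRR-TCT1-1, 241 against 693), ANG (TRP-TGG3-2, 334 against 1313), ALOXE3 (TRK-TTT3-5, 1002 against 2470) and a start of DPP9 inside its gene (TRG-TCC1-1, 377 against 534). Of these, the other-side flanks of TRP-TGG3-2 and TRK-TTT3-5 hold a whole tRNA gene, TRY-GTA5-5 and TRQ-CTG1-5. The other-side flank of TRG-TCC1-1 overlaps TRV-CAC3-1. These values therefore include counts over tRNA genes.

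**Figure D4:**
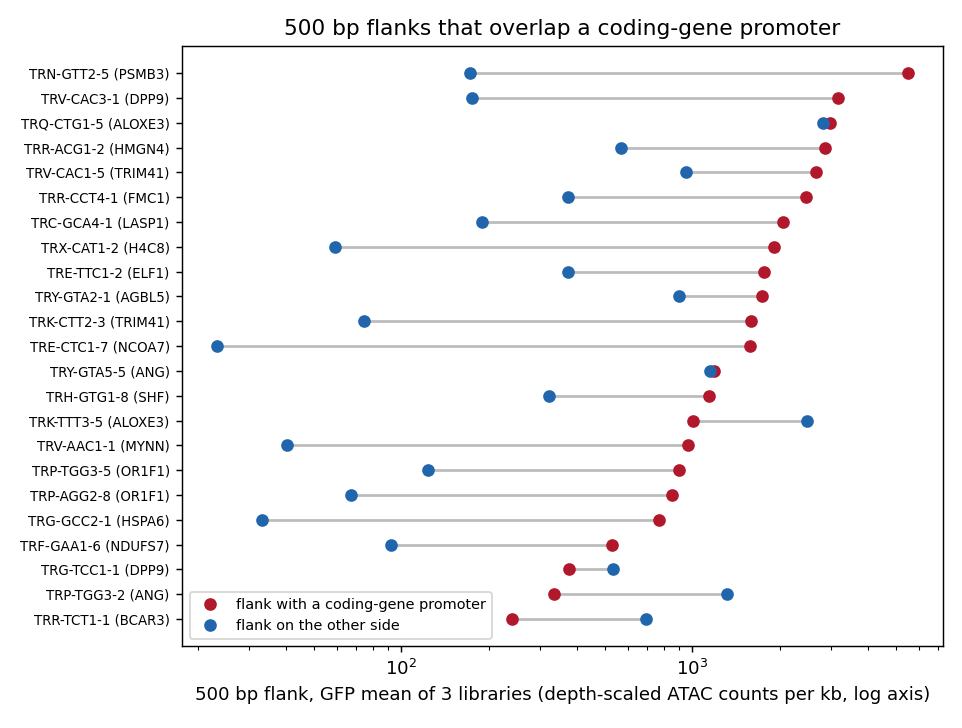
GFP mean density (log axis, 3 libraries) of the 500 bp flank that overlaps a coding-gene promoter (red) and of the flank on the other side (blue) for 23 tRNA genes, each labelled with its RefSeq locus and the coding gene. The red point lies to the right in 19 rows, and the gap is 68.2-fold at TRE-CTC1-7.

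tRNA neighbours had a similar place. The 139 genes with another tRNA gene inside their 500 bp flanks had a median of 884 ± 49.1 in those flanks, and the 211 genes with none inside their 5 kb flanks had 67.8 ± 2.41. In the first set the flank window includes the neighbour's gene itself. Genes with no tRNA gene in their 50 kb flanks (111) had 82.4 ± 2.81 in the 500 bp and 36.1 ± 0.89 in the 50 kb flanks, still above the all-feature medians of 23.7 and 27.3.

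Small RNA counts of the same genes, in CPM, were set beside the flanks. Small RNA reads of tRNA genes include fragments and are shared among identical copies: the 4 densest aspartate copies had 112 to 114 CPM each. Across the 496 genes, split into 4 sets of 124 by GFP small RNA, the 500 bp medians were 26.9 ± 1.11, 199 ± 10.9, 319 ± 19.7 and 448 ± 16.3 from the lowest to the highest set. Spearman's rho with small RNA was 0.55 for the feature window, 0.53 for the 500 bp flanks, 0.41 for the 5 kb flanks and 0.28 for the 50 kb flanks. These are correlations across genes, which share names, reads and flanks and are not independent replicates. The identical histidine genes printed above had 32.6 CPM (TRH-GTG1-9) and 23.3 CPM (TRH-GTG1-3).

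The second question was whether overexpression of a lamin changed the flanks. Each lamin was compared with GFP window by window with edgeR's quasi-likelihood test, in which a call needs a Benjamini-Hochberg adjusted p under 0.05 over all windows of that width. No tRNA flank was called at any width for any lamin. Among the 921 of 992 windows of 500 bp that passed the count filter, 0 were called for LMNA, LMNB1 and LMNB2, where 0.000435%, 0.0483% and 0.0622% of all 229879 tested windows were called. In the 5 kb flanks (992 tested) 0 were called, against 0.000571%, 0.00856% and 0.0494% of 350327 windows. In the 50 kb flanks (992 tested) 0 were called, against 0.00684%, 0.0111% and 0.0254% of 351053 windows. A joint test of the 3 lamins compared LMNB1 and LMNB2 with LMNA, without GFP, and so tested only differences among the lamins. It called 0 tRNA flanks at each width, where it called 0.0539% of 500 bp, 0.0331% of 5 kb and 0.163% of 50 kb windows. With background shares this small, 0 calls do not set tRNA flanks apart from other windows.

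At an unadjusted p under 0.05, edgeR had 44, 48 and 68 tRNA windows of 500 bp for LMNA, LMNB1 and LMNB2 (4.78%, 5.21% and 7.38%, against 5.28%, 5.66% and 5.75% of all tested windows). In the 5 kb flanks there were 40, 37 and 54 (4.03%, 3.73% and 5.44%, against 5.64%, 5.67% and 6.06% of all), and in the 50 kb flanks 16, 15 and 99 (1.61%, 1.51% and 9.98%, against 6.14%, 5.77% and 7.50% of all). The joint test had 48, 31 and 28 for the 3 widths (5.21%, 3.13% and 2.82%, against 3.71%, 5.02% and 9.70% of all). DESeq2's Wald test, run for single lamins, called 1 tRNA window in the 5 kb flanks for LMNB1, among 106 of all 350327 windows, and 0 tRNA windows elsewhere.

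That window was the downstream 5 kb flank of the glutamine gene TRQ-CTG1-1 on chromosome 6 (chr6:18836743-18841742). It had 23.7, 25.6 and 23.0 counts per kb in GFP and 13.1, 10.4 and 15.8 in LMNB1, with LMNA (17.9, 21.2 and 20.1) and LMNB2 (18.6, 17.0 and 18.0) in between. No LMNB1 library reached the GFP range. The log2 fold change was -0.88 (SE 0.21), with an edgeR adjusted p of 0.114 and a DESeq2 adjusted p of 0.0317, so the call depended on the tool. With the replicate number as a block, edgeR's adjusted p was 0.0486, and with single libraries left out it ranged from 0.0752 to 0.877. Its 500 bp flank on that side had 48.6, 83.5 and 43.7 in GFP and 27.5, 31.4 and 42.4 in LMNB1, a log2 fold change of -0.79 (SE 0.40, edgeR adjusted p = 0.887) that was -0.44 without GFP replicate 2.

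When windows with a mean below 50 counts were left out, edgeR called 3 tRNA windows of 500 bp, all lower. Under that filter it called 190 of all 44910 tested windows for LMNB1 and 175 for LMNB2, of which 62 and 37 were higher. The downstream flank of the leucine gene TRL-CAG1-7 on chromosome 6 had 1839, 1672 and 1377 in GFP and 1316, 1405 and 1145 in LMNB1 (log2 fold change -0.32, edgeR adjusted p = 0.0465 under that filter), with 1 LMNB1 library inside the GFP range. In LMNB2 the others lie in the chromosome 1 run. The upstream flank of the leucine gene TRL-CAG1-2 had 2982, 3018 and 2676 in GFP and 2240, 2417 and 2205 in LMNB2 (-0.30, edgeR adjusted p = 0.0291), and the downstream flank of the glycine gene TRG-TCC2-3 had 1665, 2046 and 1642 in GFP and 1306, 1417 and 1460 in LMNB2 (-0.32, edgeR adjusted p = 0.0405). In both, all LMNB2 libraries lay below GFP. Fewer windows were tested under that filter, and none of the 3 was called when all tested windows were used.

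The lowest adjusted p of the 500 bp flanks belonged to the downstream flank of the isoleucine gene TRI-TAT2-3 on chromosome 6 for LMNB1. It had 206, 242 and 253 in GFP and 167, 130 and 124 in LMNB1 (log2 fold change -0.74, SE 0.20, edgeR adjusted p = 0.261). For LMNB2 it belonged to the downstream flank of the printed glycine gene TRG-CCC2-2, with 623, 560 and 517 in GFP and 378, 400 and 456 in LMNB2 (-0.46, SE 0.13, edgeR adjusted p = 0.484). In neither did the groups overlap. In the 5 kb flanks the downstream window of the cysteine gene TRC-GCA5-1 on chromosome 15 had 14.99, 11.8 and 10.7 in GFP and 5.32, 6.38 and 6.75 in LMNB2 (-1.01, SE 0.29, edgeR adjusted p = 0.396).

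Other windows with the largest differences were small in counts, and none passed the test. They were picked from windows whose 3 libraries of a lamin all lay on 1 side of the 3 GFP libraries. That separation was thus set by the choice. It held for 8.69%, 11.9% and 12.05% of tested 500 bp tRNA windows in LMNA, LMNB1 and LMNB2. The share over all tested windows was not computed, so these values are not read as particular to tRNA flanks. The downstream 500 bp flank of the lysine gene TRK-CTT6-1 on chromosome 18 had 28.6, 16.2 and 4.86 in GFP, 46.5, 31.4 and 47.3 in LMNA and 51.3, 33.0 and 33.2 in LMNB1. Its log2 fold changes were 1.37 (SE 0.50) and 1.27 (SE 0.50), with edgeR adjusted p of 0.924 and 0.781. Leaving out GFP replicate 3 gave 0.91 and 0.80, and leaving out GFP replicate 1 gave 1.91 for LMNB1. The upstream 500 bp flank of the tryptophan gene TRW-CCA5-1 on chromosome 7 had 68.5, 37.7 and 65.6 in GFP, 23.3, 26.1 and 33.8 in LMNA and 25.2, 26.2 and 22.5 in LMNB2. The downstream 500 bp flank of TRG-TCC4-1, a glycine gene of the chromosome 1 run, had 45.7, 48.5 and 21.9 in GFP and 97.1, 94.2 and 73.8 in LMNB1 (log2 fold change 1.20, SE 0.34, edgeR adjusted p = 0.363). The upstream flank of the valine gene TRV-AAC1-3 had 48.6, 18.8 and 58.3 in GFP and 58.8, 95.1 and 88.2 in LMNB2 (0.93, SE 0.34, edgeR adjusted p = 0.742), and 0.59 without GFP replicate 2. The remaining 500 bp windows picked by the same rule were those of TRI-AAT9-1 and tRNA-Asn-GTT-24-1 in LMNA, TRP-AGG2-6 in LMNB1, and tRNA-Val-CAC-14-1 and TRG-GCC2-5 in LMNB2, with log2 fold changes between -1.07 and 1.14. The highest, at TRI-AAT9-1, was 0.65 without GFP replicate 2. In the 5 kb flanks the downstream window of tRNA-Asn-GTT-11-1 on chromosome 1 had 22.5, 20.1 and 21.8 in GFP, and all 9 lamin libraries lay above these values, from 23.7 to 33.8. The rule required this for LMNA and LMNB2, for which the window was picked. Its largest log2 fold change was 0.45 (SE 0.17, edgeR adjusted p = 0.713) in LMNB2.

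In the 50 kb flanks differences were small. The upstream 50 kb flank of tRNA-Asp-GTC-6-1 on chromosome 3 (chr3:184648878-184698877) had 31.2, 30.3 and 31.9 in GFP. LMNA libraries had 33.2, 33.1 and 34.4. Those with LMNB1 had 35.2, 35.3 and 34.8, and those with LMNB2 had 35.7, 33.3 and 35.8. This window was picked for each of the 3 lamins by the rule on separation given above. That all 9 lamin libraries lay above GFP was thus set by the choice. Such separation held for 3.53%, 2.92% and 11.1% of tested 50 kb tRNA windows in LMNA, LMNB1 and LMNB2. Here too the share over all tested windows was not computed. The log2 fold changes of this window were 0.11, 0.17 and 0.16, with edgeR adjusted p of 0.813, 0.720 and 0.402. The upstream 50 kb flank of TRK-CTT7-1 on chromosome 1 had 38.3, 37.2 and 38.1 in GFP and 44.6, 40.9 and 44.0 in LMNB2 (0.19, SE 0.05, edgeR adjusted p = 0.321). On the other side were flanks of the chromosome 1 run: the upstream one of TRL-CAG1-3 had 536, 501.5 and 447 in GFP and 418, 444 and 432 in LMNB2 (-0.20, SE 0.09, edgeR adjusted p = 0.587), and -0.13 without GFP replicate 1. The downstream one of TRD-GTC2-3 (-0.19) overlaps it and shares its reads.

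The whole set moved little. With LMNA the median log2 fold change of tRNA windows was 0.01 in the 500 bp, 0.01 in the 5 kb and -0.00 in the 50 kb flanks. With LMNB1 it was -0.03, -0.02 and -0.02. For LMNB2 it was -0.06, -0.07 and -0.06, while the medians over all tested windows were 0.01, -0.00 and -0.01. In LMNB2, 583 of 921 (63.3%) 500 bp windows, 704 of 992 (71.0%) 5 kb windows and 848 of 992 (85.5%) 50 kb windows had a negative value, against 48.7%, 50.4% and 54.0% of all tested windows. The tRNA windows are not independent, since 18.9%, 62.8% and 78.5% of them overlap another tRNA gene's window of the same width. With 1 window of each overlapping set, 263 of 351 50 kb windows (74.9%) were negative and the median was -0.04. For genes with no tRNA neighbour it was 147 of 222 (66.2%) and -0.02.

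These shifts were within the spread of the GFP libraries. Taking each library's median log2 difference from the GFP mean of each gene, the 50 kb flanks gave 0.08, 0.03 and -0.11 in GFP and -0.08, -0.07 and -0.05 in LMNB2. GFP replicate 3 was the lowest of all 12 libraries at each width (-0.08, -0.12 and -0.11), and every LMNB2 library lay inside the GFP range. Replicate 3 was likewise the lowest library of LMNB1, at -0.08, -0.11 and -0.09, and of LMNA, at -0.06, -0.07 and -0.06, but not of LMNB2. Without GFP replicate 3 the LMNB2 medians were -0.10, -0.12 and -0.10 for the 3 widths. Without GFP replicate 1 they were -0.04, -0.04 and -0.03, and without GFP replicate 2 the 500 bp median was -0.04. The 50 kb median was 0.39 times its full value without GFP replicate 1. The direction of the smaller LMNA medians, and of those of LMNB1 at 5 kb and 50 kb, depended on single libraries. The LMNA medians became -0.02, -0.05 and -0.03 when GFP replicate 3 was left out, and 0.05, 0.04 and 0.02 when LMNA replicate 3 was. For LMNB1 the fits that left out GFP replicate 3 gave -0.06, -0.06 and -0.05, and those that left out LMNB1 replicate 3 gave -0.0046, 0.01 and 0.02. No tRNA window was called for a single lamin in any of these fits.

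**Figure D5:**
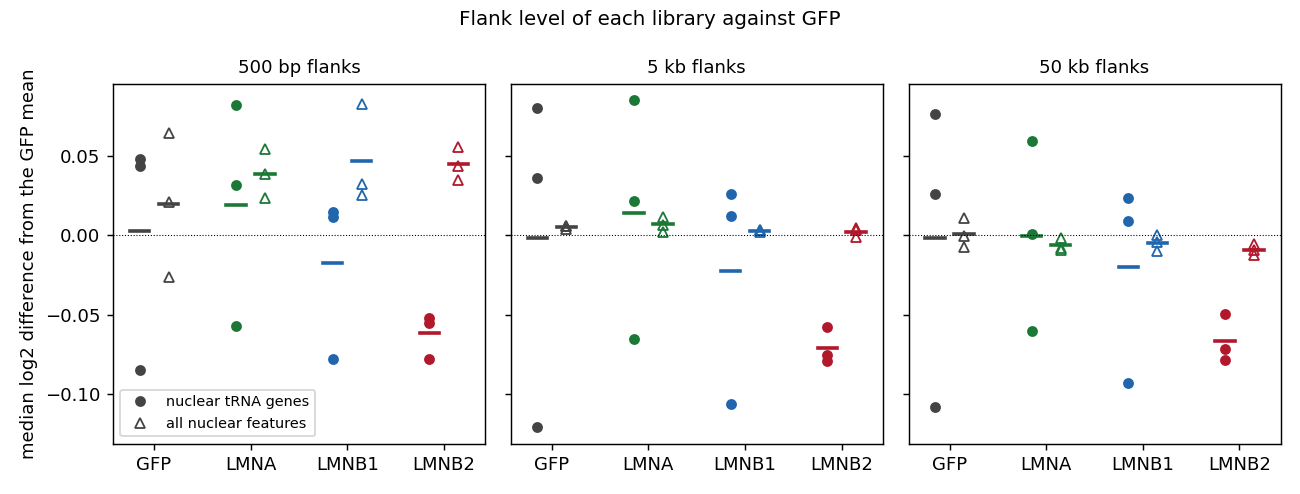
Median log2 difference of each library from the GFP mean, over tRNA flanks (filled circles) and over all nuclear features (open triangles), for the 3 flank widths; horizontal bars are group means. The 3 LMNB2 circles lie between -0.08 and -0.05 at each width, inside the range of the GFP circles (-0.12 to 0.08 at 5 kb).

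Direction depended on the scaling. When libraries were scaled by their total counts, mitochondrial windows included, the LMNB2 medians were 0.30 in the 500 bp and 0.44 in the 5 kb flanks, but all tested windows moved alike, by 0.38 and 0.52. On that scale edgeR called 688 tRNA windows of 5 kb higher in LMNB2, along with 197651 of all 5 kb windows called. The LMNB2 median of tRNA windows minus that of all tested windows was -0.08, -0.07 and -0.05 for the 3 widths on total counts and -0.08, -0.06 and -0.06 with TMM.

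The near-to-far ratio was 1.24 ± 0.07 for GFP, 1.21 ± 0.08 for LMNA, 1.19 ± 0.02 for LMNB1 and 1.16 ± 0.04 for LMNB2. The LMNB2 difference of -0.07 was about as large as the SD of the GFP libraries, whose range was 1.18 to 1.31 against 1.11 to 1.19 in LMNB2. It was -0.16 for genes with no tRNA neighbour (1.26 ± 0.18 in LMNB2 against 1.43 ± 0.05) and -0.14 with 1 gene of each overlapping set (1.28 ± 0.08 against 1.42 ± 0.06). The upstream over downstream ratio was 0.14 ± 0.04, 0.10 ± 0.07, 0.24 ± 0.06 and 0.16 ± 0.05 in the same order. Other Pol III genes had 0.26, 0.14, 0.14 and 0.20 as near-to-far ratios.

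By run, the median log2 fold change for LMNB2 was below 0 in all 13 runs in the 5 kb and 50 kb flanks and in 9 of 13 in the 500 bp flanks. In the 500 bp flanks of the chromosome 1 run, the LMNB2 libraries lay between -0.17 and -0.10 relative to the GFP mean, below the GFP libraries (-0.09 to 0.08), and the run from 57792808 on chromosome 6 lay above GFP (0.14 to 0.35 against 0.02 to 0.10) at few counts per window. In the 5 kb flanks the chromosome 7 run lay below GFP (-0.11 to -0.07 against -0.04 to 0.08). LMNB2 did not overlap GFP in these 3 of the 39 pairs of run and width. Among single tested tRNA windows, LMNB2 lay wholly on 1 side of GFP in 12.05% at 500 bp, 10.9% at 5 kb and 11.1% at 50 kb. These shares are for single tRNA windows and not for run medians, and the shares over all tested windows were not computed. They therefore cannot decide whether the 3 pairs set these runs apart. In the 50 kb flanks the run medians lay between -0.17 in the chromosome 1 run and -0.03 in the run on chromosome 6 from 57792808, and the ranges of the LMNB2 and GFP libraries overlapped in all 13 runs. In 3 runs the lowest LMNB2 library was below the lowest GFP library: it had -0.20 against -0.14 in the chromosome 1 run, -0.16 against -0.11 in the chromosome 7 run and -0.13 against -0.12 in the chromosome 6 run from 26286501. An unadjusted edgeR p under 0.05 for LMNB2 was found in 33 of 64 50 kb windows of the chromosome 1 run (median -0.17) and in 10 of 28 of the chromosome 7 run (median -0.11), against 0 to 6 windows in each of the other runs. The share over all tested 50 kb windows was 7.50%. Windows of a run overlap and share reads, so these counts are not counts of independent windows. In the 50 kb flanks LMNA was below 0 in 6 of 13 runs and LMNB1 in 12 of 13, with run medians between -0.09 and 0.06.

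The genes TRU-TCA1-1, TRR-TCT2-1 and TRL-CAA2-1 were named whatever their values. The selenocysteine gene TRU-TCA1-1 on chromosome 19, which serves selenoprotein synthesis, had 297, 381 and 285 in its 500 bp flanks in GFP and 346, 364 and 332 in LMNB2. TRR-TCT2-1, an arginine gene within HES7 on chromosome 17, had 2439, 2512 and 2160 with GFP and 2418, 2585 and 2207 with LMNA. It had 2604, 2447 and 2248 with LMNB1 and 2243, 2107 and 2316 with LMNB2. The leucine gene TRL-CAA2-1 on chromosome 6 had 180, 155 and 172 in GFP and 166, 160 and 159 in LMNB2. In each of these the groups overlapped. The tandem aspartate gene TRD-GTC2-5 had 6128, 6406 and 5560 with LMNA and 5842, 5765 and 5542 with LMNB1. With LMNB2 it had 5414, 5519 and 5557, and each group overlapped GFP.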

How the data were processed

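Chromatin accessibility (ATAC-seq, 12 libraries) and small RNA (12 libraries) were measured in HEK293 cells. The authors deposited raw counts per window and per feature, on GRCh38 per the submitters' processing notes; per the values, they are whole numbers with differing totals. The aligner, counter, duplicate handling, strand use, whether ATAC reads were moved onto the transposase cut and the treatment of reads with several matches are not given in the sources used here, and they affect counts at repeated genes. Starts in the table count from 0 and are printed from 1.

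Groups came from sample titles. All windows of each width entered 1 edgeR fit (version 4.0.16, under R 4.3.3). Mitochondrial windows were included, and they held 0.0% of the counts at 50 kb. It used filterByExpr, TMM, a mean per group and robust quasi-likelihood dispersions. Biological coefficients of variation were 0.214, 0.120 and 0.060 for 500 bp, 5 kb and 50 kb. Adjustment was by Benjamini-Hochberg over all tested windows of a width. The fit was tested on simulated counts. Levels are counts per kb divided by relative TMM depth; ratios used a pseudocount of 0.5 counts. Small RNA is CPM of the library total, as computed from the counts. Sequences are from RefSeq (GRCh38.p14).

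Named genes were the 5 highest and 5 lowest in GFP for 500 bp density and near-to-far ratio, the 3 highest and 3 lowest for 50 kb density, fixed tRNAs, and per width and lamin the 2 highest and 2 lowest fold changes among windows at or above median abundance whose 3 lamin libraries lay on one side of GFP. Coding-promoter and same-name examples were chosen after their values were seen. The members, lists and tests were chosen with earlier results of these data known. Alternatives included DESeq2 1.42.0, other scalings and filters, a replicate block and leaving out each library.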

Additional observations from a re-analysis of the deposited data

How the results depend on the processing

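Of the alternative values, 516 stayed within the limits set for a change (1.5 times for a count, the replicate SD for a median or ratio) and 58 moved. The calls for tRNA flanks stayed at 0 for every single lamin when any library was left out; in the joint test of the 50 kb flanks the count ranged from 0 to 2, with 2 without LMNB1 replicate 3. A mean of at least 50 counts gave 1 call in LMNB1 (downstream of TRL-CAG1-7) and 2 in LMNB2 (upstream of TRL-CAG1-2 and downstream of TRG-TCC2-3) in the 500 bp flanks, with log2 fold changes near -0.3, among 190 and 175 of all windows. In the 5 kb flanks of LMNB1, the replicate block and DESeq2's Wald test each gave 1, the flank of TRQ-CTG1-1. Whether equal replicate numbers mark paired samples was not tested. Replicate 3 was the lowest library of GFP, LMNA and LMNB1 at each width but not of LMNB2. The median correlation of deviations was 0.0043, 0.0065 and 0.017 for equal numbers in the 3 widths and 0.00092, -0.0030 and -0.012 for unequal ones. At 50 kb the equal pairs ranged from -0.357 to 0.632 and the unequal ones from -0.605 to 0.404. The block changed no other count of tRNA calls. Over all 50 kb windows it called 205 for LMNA and 284 for LMNB2, against 24 and 89 without it. Leaving out 1 library moved the medians of LMNA between -0.05 and 0.05, those of LMNB1 between -0.06 and 0.02 (below 0 at 500 bp), and those of LMNB2 between -0.12 and -0.03. Scaling decided the most. With total counts only, LMNA, LMNB1 and LMNB2 had 0, 1 and 2 calls in the 500 bp flanks, 0, 363 and 688 in the 5 kb flanks (3 jointly), all higher, and 625, 148 and 719 in the 50 kb flanks, all lower, with median log2 fold changes of 0.15, 0.29 and 0.30, of 0.16, 0.39 and 0.44, and of -0.15, -0.12 and -0.18. Of all windows, 234 and 465 of 229879 (500 bp), 102469 and 197651 of 350327 (5 kb) were called in LMNB1 and LMNB2, and 134724, 15943 and 99569 of 351053 (50 kb) in the 3 lamins. With total counts of nuclear windows, added after seeing the data, LMNB1 and LMNB2 had 114 and 459 (428 jointly), 3 and 557 (530 jointly), and in the 50 kb flanks 148 and 719 (625 in LMNA), all lower, with medians of -0.29 and -0.59, of -0.12 and -0.34, and of -0.12 and -0.18 (-0.15 in LMNA). All tested windows moved with them, by -0.51 in LMNB2 at 500 bp, for example, with 9397 and 40402 windows called at 500 bp and 518 and 65219 at 5 kb in LMNB1 and LMNB2. The overexpressed lamin genes were not left out of these nuclear totals. Among nuclear feature windows, those of LMNB2 held 193371 to 232067 CPM in the LMNB2 libraries. Their share of the flank totals was not computed. Relative to the 50 kb window of the same side, the LMNB2 median at 500 bp was 0.0034. The GFP near-to-far ratio was 1.33 with a pseudocount of 5, 1.08 as a mean, 1.62 for genes with at least 10 counts in the near windows, 1.43 for genes with no tRNA neighbour, 1.42 with 1 gene of each overlapping set and 3.30 with the feature window. Its difference from GFP was -0.10, -0.14 and -0.16 in LMNA, LMNB1 and LMNB2 for genes with no tRNA neighbour, -0.11 in LMNB1 and -0.14 in LMNB2 with 1 gene of each set, and 0.0204 in LMNB1 with the feature window. The GFP upstream over downstream ratio was 0.24 as a mean, 0.19 for genes with at least 10 counts, 0.62 with no tRNA neighbour and 0.31 with 1 gene of each set; the LMNA difference was 0.0349 with at least 10 counts and -0.12 with 1 gene of each set, and the LMNB1 difference 0.0401 as a mean. The cause of these changes was not tested. A 500 bp flank of a low gene holds few counts per library, which limits what can be seen there.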
